A study of Mus musculus with 14 samples.

Results

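Glycolysis and the tricarboxylic acid (TCA) cycle supply most of the carbon metabolism of a brain cell, and 38 genes of their enzymes were followed among the 23412 genes of the deposited table. They were chosen by name: 17 genes encode the glycolytic enzymes from hexokinase to lactate dehydrogenase, and 21 encode the pyruvate dehydrogenase complex and the enzymes of the TCA cycle. All 38 names were in the table. RNA was measured by RNA-seq, and ribosome footprints, the mRNA fragments that ribosomes shield from nuclease, by ribosome profiling of mouse cortex. Control mice carried a floxed Rpl22 allele (Rpl22flox/flox) and the transgene CamKCre+. Knock-out (KO) mice carried the same alleles together with Fmr1X-Y, which removes Fmr1 and with it FMRP, a protein that binds mRNAs and regulates their translation. The floxed Rpl22 allele lets Cre tag ribosomes in cells where the CamK promoter is active, which in cortex are mainly excitatory neurons. The protocols name no immunoprecipitation of tagged ribosomes, so both readouts stand for the whole cortical lysate. Neither treatment nor time points were part of the design, and the age of the mice is not given in the sources used here. There were 8 RNA libraries, 4 from control mice (numbers 1, 3, 6 and 8) and 4 from KO mice (2, 4, 5 and 7), and 6 footprint libraries, 3 from control mice (1, 3 and 9) and 3 from KO mice (2, 4 and 10).

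Glycolysis turns glucose into pyruvate in the cytosol, with the steps of hexokinase, phosphofructokinase and pyruvate kinase far from equilibrium and therefore under control. Lactate dehydrogenase interconverts pyruvate and lactate. In mitochondria the pyruvate dehydrogenase complex makes acetyl-CoA, which the TCA cycle oxidizes while it loads electrons onto carriers for the respiratory chain. In brain, astrocytes are known for strong glycolysis and neurons for strong oxidative metabolism.

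Upstream sequences are shown for the members whose RNA differed between genotypes, with 1 window of 250 bases before an annotated start site for each (RefSeq, GRCm38.p6). The sequence ACGTG, the core of the element bound by hypoxia-inducible factors, which are known regulators of glycolytic genes, was searched on both strands, so that CACGTG counts on each strand and the matches overlap. Capitals mark a match. The windows are Pkm at chr9:59656326-59656575 (plus strand), Ogdh at chr11:6291347-6291596 (plus strand) and Suclg1 at chr6:73248255-73248504 (plus strand), in that order.
Pkm: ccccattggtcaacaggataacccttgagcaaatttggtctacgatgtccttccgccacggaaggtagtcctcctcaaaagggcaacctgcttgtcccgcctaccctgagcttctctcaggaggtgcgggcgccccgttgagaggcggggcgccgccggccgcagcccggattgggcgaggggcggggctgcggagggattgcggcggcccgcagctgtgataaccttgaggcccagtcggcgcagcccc
Ogdh: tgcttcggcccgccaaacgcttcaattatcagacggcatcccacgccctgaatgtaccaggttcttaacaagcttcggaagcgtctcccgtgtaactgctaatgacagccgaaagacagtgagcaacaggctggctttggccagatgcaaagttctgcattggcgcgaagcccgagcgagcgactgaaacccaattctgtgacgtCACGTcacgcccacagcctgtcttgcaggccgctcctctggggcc
Suclg1: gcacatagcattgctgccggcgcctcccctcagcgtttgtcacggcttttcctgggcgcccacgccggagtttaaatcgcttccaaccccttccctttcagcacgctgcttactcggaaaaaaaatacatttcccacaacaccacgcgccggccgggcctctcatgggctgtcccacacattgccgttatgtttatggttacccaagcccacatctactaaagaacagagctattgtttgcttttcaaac
These letters were in the Ogdh window, 45 bases before the start site, and not in the windows shown for Pkm and Suclg1. A second Pkm window, at a start site farther downstream, held 1 match at 75 bases before that start. Sequences of 36 of the 38 members were matched by name, and Idh3a and Sdhc were not among them. ACGTG was in at least 1 window of 7 of 17 glycolytic genes (41.2%), of 5 of 19 TCA cycle genes (26.3%) and of 4998 of all 27025 genes (18.5%). The glycolytic genes were Hk2, Pfkm, Aldoa, Pgk1, Pgam1, Pkm and Ldha, and the Ldha window at its first start site held 5 matches. Genes with several windows have more chances of a match: per window the share was 32.1% in glycolysis, 41.7% in the TCA cycle and 16.6% in all genes. Of the 24 TCA cycle windows 6 belong to Ogdh, all with a match and several overlapping, and without Ogdh, left out after its windows were seen, the TCA cycle share was 22.2%.

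An RNA library held between 8847547 and 11371851 counts and a footprint library between 4124065 and 6033030. Levels are given in CPM, in which each library is brought to the same size by TMM factors computed within its assay. Log2 fold changes are KO over control, and a gene is called where the Benjamini-Hochberg adjusted p of edgeR's quasi-likelihood test over all genes is under 0.05. As a check of the genotypes, Fmr1 averaged 82.9 CPM in control RNA (SD 8.36, n = 4) and 21.7 CPM in KO RNA (SD 2.40, n = 4), and its footprints averaged 113 CPM (SD 1.99, n = 3) and 7.44 CPM (SD 1.43, n = 3). The RNA libraries of KO mice 2, 4 and 7 were close to copies of each other: in genes whose counts in a pair summed to 20 or more, the chi-square per degree of freedom was 1.18 to 1.32, against 1.99 to 11.8 in the other 9 pairs of RNA libraries of one genotype and 1.15 to 1.42 in the 6 footprint pairs. The RNA libraries of KO mice 2, 4 and 7 are used as labelled, as 3 mice, and RNA calls are also given with their counts summed to 1 library. By the same measure the footprint libraries of one genotype were about as close to each other, and they were not summed. Whether the spread of the footprint libraries stands for that between mice was not tested.

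Summed levels of several sets of cell type markers did not overlap between genotypes. The summed level of 6 excitatory neuron markers was 2086 to 2367 CPM in control RNA and 2668 to 2960 CPM in KO RNA, and that of 6 oligodendrocyte markers was 4884 to 5327 CPM and 4267 to 4594 CPM. The sum of 6 astrocyte markers overlapped, at 2989 to 3190 CPM and 3070 to 3805 CPM. Hypothalamic markers, which a cortical sample should hold at low levels, were at 34.4 to 65.3 CPM in control RNA and 15.0 to 21.2 CPM in KO RNA. In footprints the sums were 4419 to 4522 CPM in controls and 4173 to 4295 CPM in KO mice for excitatory neurons, the reverse order of RNA, 8194 to 8353 CPM and 8007 to 8049 CPM for oligodendrocytes, 4704 to 4768 CPM and 4724 to 4756 CPM for astrocytes, and 91.8 to 102 CPM and 33.4 to 35.2 CPM for hypothalamus. The excitatory neuron markers did not move as one: in RNA 5 of 6 were higher (2 called higher, median log2 fold change 0.13, largest 0.75), and in footprints 3 were higher and 3 lower (2 called higher and 1 lower, median 0.02). Of the oligodendrocyte markers, 5 of 6 were lower in RNA (1 called), and in footprints 3 were higher and 3 lower (1 called higher and 3 lower, median -0.03). Of the astrocyte markers, 2 were called lower in RNA, and 2 lower and 1 higher in footprints. Of all genes, 7.41% were called in RNA and 25.5% in footprints. Genotypes did not overlap in 15.1% and 37.3% of all genes. Whether the markers differed more than other genes was not tested. None of these 24 markers was at 0 in all libraries. Their part in the enzyme values below was not tested, and in bulk tissue fewer cells of a type and less RNA per cell cannot be told apart.

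The enzymes held a large share of each library. In controls the glycolytic genes took 0.844% ± 0.0333 (SD, n = 4) of RNA counts and 0.932% ± 0.00474 (SD, n = 3) of footprint counts, and the TCA cycle genes took 0.475% ± 0.00721 (SD, n = 4) and 0.733% ± 0.0050 (SD, n = 3). No coding lengths were used, so levels are compared within a gene and as footprints over RNA of the same gene. In control libraries the log2 ratio of footprint CPM to RNA CPM had a median of -0.13 over 12145 genes. The median of the 14 glycolytic genes tested in both assays was 0.37, and 11 of the 14 lay above the median of all genes. The median of the 21 TCA cycle genes was 0.61, and 19 of the 21 lay above it.

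Single enzymes were spread widely around these medians. Mitochondrial malate dehydrogenase, Mdh2, had the highest ratio of all members, with a log2 ratio of 1.89 at the 99th percentile of all genes. Idh3a, the catalytic subunit of the NAD-dependent isocitrate dehydrogenase, followed at 1.31, and Suclg1, the subunit shared by both succinyl-CoA ligases, at 1.30. The neuronal enolase Eno2 had a log2 ratio of 1.16, the highest in glycolysis. Pkm, the pyruvate kinase gene, had a log2 ratio of -1.38 at the 10.6th percentile. Pdhb, a subunit of the first enzyme of the pyruvate dehydrogenase complex, was at -1.21, and Suclg2, of the GTP-forming succinyl-CoA ligase, at -1.71.

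In lower glycolysis 4 members had almost no footprint counts. Gapdh, glyceraldehyde-3-phosphate dehydrogenase, summed to 33107 RNA counts over 8 libraries and to 142 footprint counts over 6 libraries, or 4.29 footprint counts per 1000 RNA counts, and its control log2 ratio of -6.63 was the lowest of all members tested. Pgk1, phosphoglycerate kinase, had 13230 RNA counts and 11 footprint counts. Pgam1, phosphoglycerate mutase, had 4015 RNA counts and 3 footprint counts. Eno1, the widely expressed enolase, had 0 counts in every RNA library and every footprint library of the columns used, and 1 count in all RNA exon columns together. Where a library holds 0 counts, up to 3 counts remain possible, for counting error only. RefSeq lists near-identical copies or pseudogenes of Gapdh, Pgk1, Pgam1, Aldoa and Ldha, and a gene whose synonym is Eno1b, Gm5506, is in the table with 66 to 293 RNA counts and 9 to 34 footprint counts per library. Counts of genes with such copies are uncertain. Aldoa and Ldha had 312 and 342 footprint counts per 1000 RNA counts, and whether the copies bear on the low footprint counts of the others was not tested. Pgk1, Pgam1 and Eno1 were not tested in footprints.

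**Figure D1:**
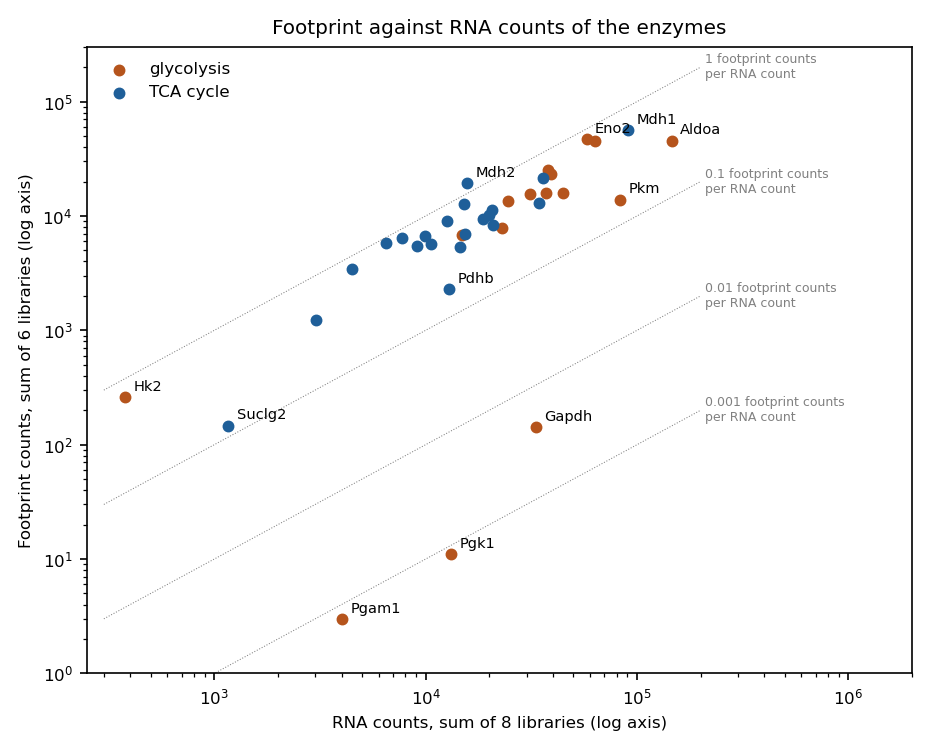
Footprint counts summed over 6 libraries (vertical, log axis) against RNA counts summed over 8 libraries (horizontal, log axis), 1 point per enzyme, with Eno1 left out because both sums are 0. Dotted lines join points of equal footprint counts per RNA count: Gapdh (142 against 33107), Pgk1 (11 against 13230) and Pgam1 (3 against 4015) lie far under all other members, which include Pkm and Pdhb.

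Between genotypes, 4 of the 37 members tested in RNA were called: Pkm was lower in KO, and Idh3a, Ogdh and Suclg1 were higher. By pathway, 1 of 16 glycolytic genes (6.25%) and 3 of 21 TCA cycle genes (14.3%) were called, where 7.41% of all 13507 genes were called (3.53% higher and 3.88% lower). The median log2 fold change was -0.02 in glycolysis and -0.07 in the TCA cycle, against a median of 0.00 for all genes. Libraries of the genotypes did not overlap in 8 of the 37 members, where 15.1% of all genes did not overlap. Counts of calls moved with single mice. Without KO mouse 5 or control mouse 8 the glycolytic count was 2 and 4. The TCA cycle count was 1 without mouse 1, 2, 3, 4, 6 or 7, and 5 without mouse 8. The share of all genes called moved too, to between 2.62% and 4.78% without mouse 1, 2, 3, 4, 6 or 7, 10.8% without mouse 5 and 13% without mouse 8. With KO mice 2, 4 and 7 summed to 1 library, 0 members of either pathway were called (79 of all genes were).

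In footprints, 11 of the 35 members tested were called, 6 higher and 5 lower in KO: 4 of 14 in glycolysis (28.6%) and 7 of 21 in the TCA cycle (33.3%), where 25.5% of all 12158 genes were called (11.9% higher and 13.6% lower). The called changes were small, between -0.19 and 0.13 on the log2 scale. The median log2 fold change was -0.01 in glycolysis, 0.04 in the TCA cycle and 0.01 in all genes. In 20 of the 35 members the genotypes did not overlap, where 37.3% of all genes did not. Without KO mouse 10 the counts were 2 in glycolysis and 3 in the TCA cycle, and the TCA cycle count was 3 without control mouse 3 and 4 without KO mouse 4, while 20.7% to 20.9% of all genes were called without one of these mice. When footprint and RNA libraries shared 1 fit and 1 estimate of spread, 1 glycolytic gene (Pfkp) and 0 TCA cycle genes were called, where 13.8% of all genes were.

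Translational efficiency (TE), a gene's footprint counts over its RNA counts, was tested as the interaction of genotype and assay over all 14 libraries. This fit has 1 estimate of spread per gene for both assays. The common coefficient of variation was 0.077 in the RNA fit, 0.021 in the footprint fit and 0.066 in the TE fit. TE p-values thus rest on a common spread below that of RNA. Pkm was called higher and Idh3a lower in KO, 1 of 14 glycolytic genes and 1 of 21 TCA cycle genes, where 7.81% of all 12145 genes were called (3.4% higher and 4.41% lower). The median log2 change in TE was 0.01 in glycolysis, 0.03 in the TCA cycle and -0.01 in all genes. The TCA cycle count was 0 without mouse 1, 2, 3, 4, 6, 9 or 10, 2 without mouse 5 and 6 without mouse 8, and the glycolytic count was 2 without mouse 5 or mouse 8. Of all genes, 3.4% to 6.02% were called without mouse 1, 2, 3, 4, 6, 9 or 10, 10.6% without mouse 5 and 10.4% without mouse 8. A fit with the mouse as a block pairs the RNA and footprint libraries of mice 1 to 4. With it 3 glycolytic genes and 7 TCA cycle genes were called, among 1812 of all genes (14.9%). Mice 5 to 10 have 1 library each, so its TE changes rest on control mice 1 and 3 against KO mice 2 and 4. The RNA libraries of those KO mice were close to copies. In mice 1 to 4 alone the counts were 3 and 8, and 14.8% of all genes were called. Besides Pkm and Idh3a, the block added the calls of Tpi1 (log2 change 0.28), Pfkl (0.24), Pdhb (0.34), Idh3b (0.40), Sucla2 (0.22) and Fh1 (0.31) as higher, and of Ogdh (-0.24) and Mdh2 (-0.30) as lower, with edgeR adjusted p of 3.43e-07 (Idh3b) to 0.014 (Sucla2).

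**Figure D2:**
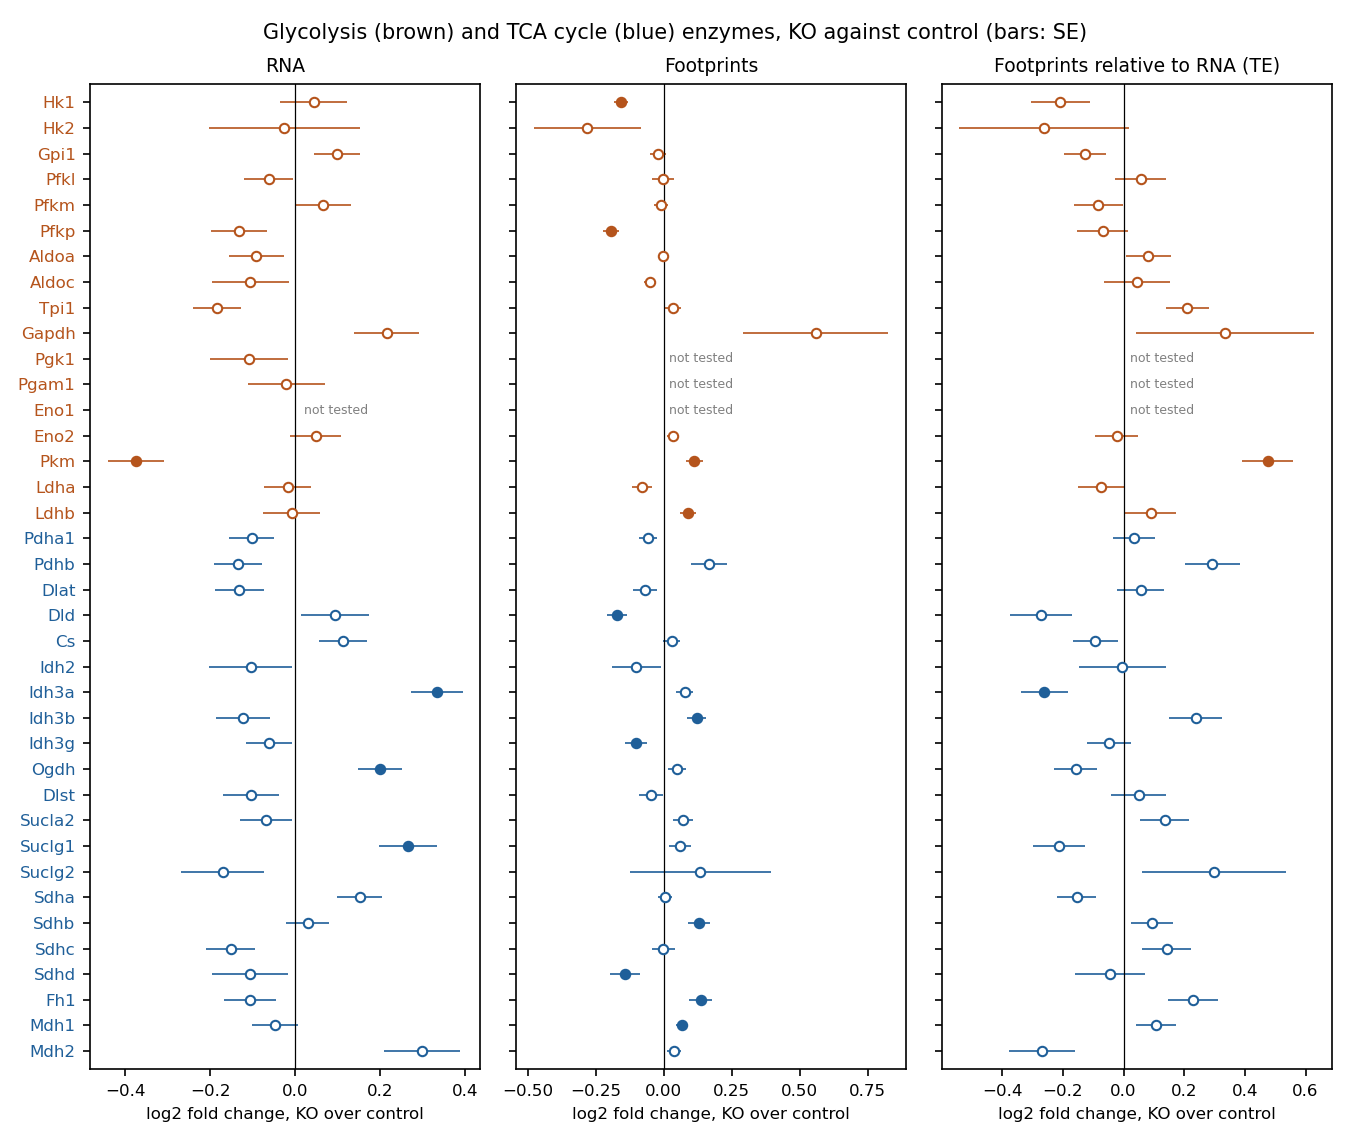
Log2 fold change of KO over control (horizontal, with SE bars) of the 37 members tested in RNA and the 35 tested in footprints and in TE. Filled points are called (adjusted p under 0.05), and the 3 panels have different scales; Pkm stands to the left in RNA (-0.37) and to the right in TE (0.48), and all footprint points but Gapdh and Hk2 lie within 0.2 of 0.

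Pkm encodes pyruvate kinase, which makes pyruvate in the last step of glycolysis and is expressed as splice forms that gene counts cannot separate. Its RNA was at 1309, 1216, 1115 and 1111 CPM in control mice 1, 3, 6 and 8 and at 896, 865, 999 and 906 CPM in KO mice 2, 4, 5 and 7. Every KO library was below every control library, and KO mouse 5 was nearest to the controls. The log2 fold change was -0.37 with an SE of 0.07 (edgeR's quasi-likelihood test, adjusted p = 0.00471), and KO RNA stood at 77.2% of control. Its footprints went the other way, at 466, 451 and 457 CPM in control mice 1, 3 and 9 and at 469.7, 493 and 518 CPM in KO mice 2, 4 and 10. The genotypes again did not overlap, though KO mouse 2 stood within 4 CPM of control mouse 1. The footprint log2 fold change was 0.11 with an SE of 0.03 (edgeR, adjusted p = 0.00381). Without KO mouse 10 it was 0.07 (edgeR, adjusted p = 0.13).

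Within single animals, the ratio of Pkm footprint CPM to RNA CPM was 0.356 and 0.371 in control mice 1 and 3 and 0.524 and 0.570 in KO mice 2 and 4. Both KO animals were above both controls. In the fit over all 14 libraries the log2 change in TE was 0.48 with an SE of 0.08 (edgeR, adjusted p = 0.00108). It was called in all 22 alternatives, at log2 changes of 0.40 to 0.58 and adjusted p of up to 0.0155. The RNA call was kept without any single mouse. It was lost with KO mice 2, 4 and 7 summed (log2 fold change -0.33, edgeR, adjusted p = 0.142), with control mice 1 and 3 summed as well (-0.30, edgeR, adjusted p = 0.273), and in mice 5 to 8, whose titles share a prefix (-0.23, edgeR, adjusted p = 0.32). In mice 1 to 4 it was -0.51 (edgeR, adjusted p = 7.24e-11).

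**Figure D3:**
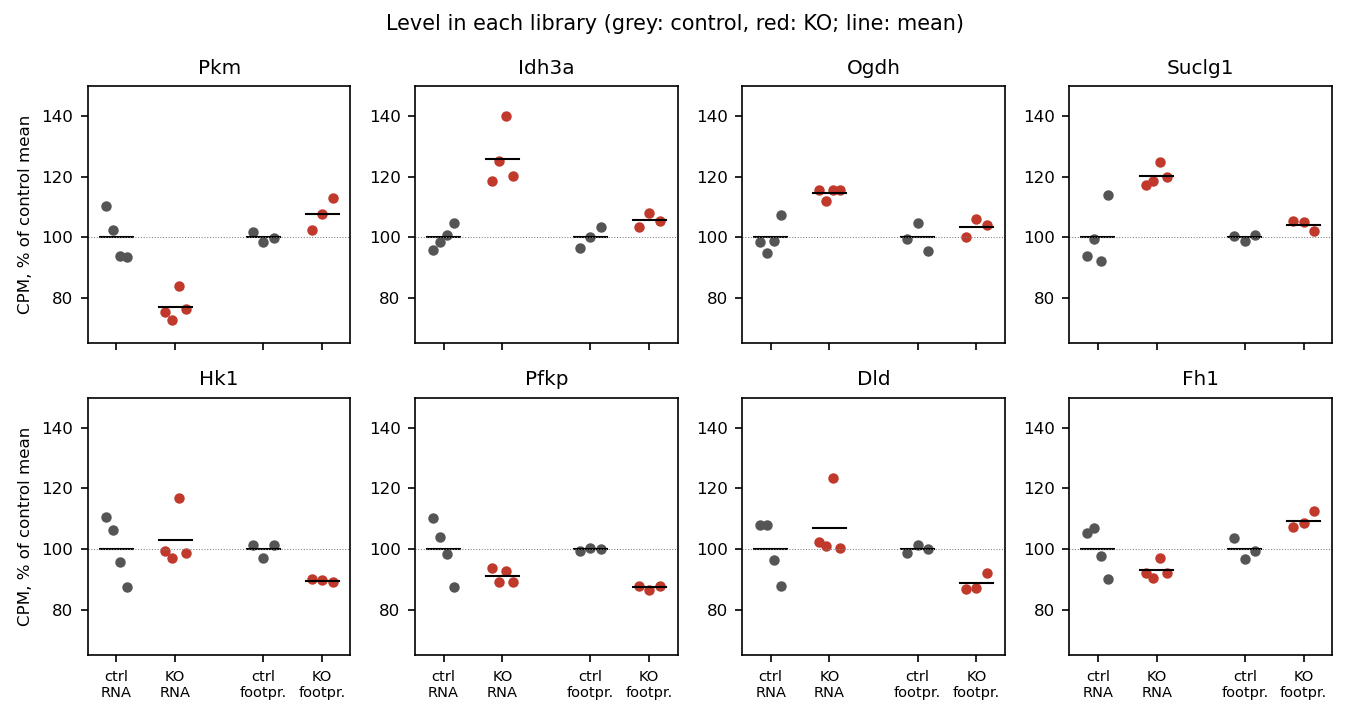
Level of 8 members in each library as percent of the control mean of the same assay (vertical), for control (grey) and KO (red) RNA and footprints, with a line at each group's mean. In Pkm the KO libraries are low in RNA and above the controls in footprints; Hk1, Pfkp and Dld are low in KO footprints, where their RNA overlaps between genotypes.

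At the entry of glycolysis, Hk1, the main brain hexokinase, and Pfkp, the platelet-type phosphofructokinase subunit, had fewer footprints in KO. Hk1 footprints were at 915, 877 and 916 CPM in control mice 1, 3 and 9 and at 812, 810.3 and 803 CPM in KO mice 2, 4 and 10. All KO libraries were below all controls, and the KO libraries were closer together than the controls. The log2 fold change was -0.16 with an SE of 0.03 (edgeR, adjusted p = 2.52e-07). Hk1 RNA overlapped, at 522, 501, 451 and 412 CPM in control mice 1, 3, 6 and 8 and 469, 458, 551 and 465 CPM in KO mice 2, 4, 5 and 7, with a log2 fold change of 0.04 (edgeR, adjusted p = 0.793). In mice 1 to 4 alone the RNA fold change was -0.14 (edgeR, adjusted p = 0.00748), the opposite sign. Its TE change was -0.21 over all libraries (edgeR, adjusted p = 0.201) and -0.01 with the mouse as a block (edgeR, adjusted p = 0.927). Within single animals the ratio of footprint CPM to RNA CPM was 1.75 in both control mice 1 and 3 and 1.73 and 1.77 in KO mice 2 and 4.

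Pfkp footprints were at 558, 563 and 562 CPM in controls and 492, 486 and 493 CPM in KO mice. Both groups were tight and far apart, and the log2 fold change was -0.19 with an SE of 0.03 (edgeR, adjusted p = 3.5e-08). Pfkp was called in all 15 alternatives run on footprints. Its RNA was at 452, 426, 403 and 358 CPM in control mice 1, 3, 6 and 8 and 384, 365, 380.1 and 365 CPM in KO mice 2, 4, 5 and 7. Control mouse 8 was below every KO library, so the groups overlapped, and the RNA log2 fold change was -0.13 (edgeR, adjusted p = 0.242). Without mouse 8 it was -0.19 (edgeR, adjusted p = 0.0255). The calls for Hk1 and Pfkp in footprints were kept without any single mouse. The Hk1 call was lost in the fit shared with the RNA libraries (edgeR, adjusted p = 0.148).

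The makeup of isozyme families was compared next. Phosphofructokinase has liver (Pfkl), muscle (Pfkm) and platelet (Pfkp) subunits, and Pfkm took 44.6% ± 1.4 (SD, n = 4) of their RNA counts in controls and 47.5% ± 1.43 (SD, n = 4) in KO mice. No library overlapped (42.9% to 46.4% against 46.6% to 49.6%). The exact permutation p was 0.0286, two-sided and the smallest that 4 against 4 can give, and 0.25 after adjustment over 10 tests. This test counts KO mice 2, 4 and 7 as separate, at 46.9%, 46.8% and 46.6%. Their RNA libraries were close to copies, and counted as 1 library they could not give a p this small. In footprints the Pfkm share was 50.3% ± 0.913 (SD, n = 3) and 52.5% ± 0.170 (SD, n = 3), again with no overlap (exact permutation test, p = 0.1, the smallest 3 against 3 can give, adjusted p = 0.25). Ldha, the lactate dehydrogenase subunit common in glycolytic tissue, took 38.1% ± 1.01 (SD, n = 3) of Ldha and Ldhb footprints in controls and 35.4% ± 0.919 (SD, n = 3) in KO mice without overlap (exact permutation test, p = 0.1, adjusted p = 0.25). In RNA its share was 48.6% ± 2.19 (SD, n = 4) and 48.5% ± 2.40 (SD, n = 4), which overlapped (exact permutation test, p = 0.971). Aldoa took 49.9% ± 0.255 (SD, n = 3) and 50.8% ± 0.358 (SD, n = 3) of aldolase footprints (exact permutation test, p = 0.1, adjusted p = 0.25). With groups this small, no share in either assay could have passed the adjustment over the 10 tests. The other tests were of the Hk1 share of hexokinase counts and the Sucla2 share of succinyl-CoA ligase counts, in both assays, and of the Aldoa share in RNA, with adjusted p of 0.629 to 0.971.

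**Figure D4:**
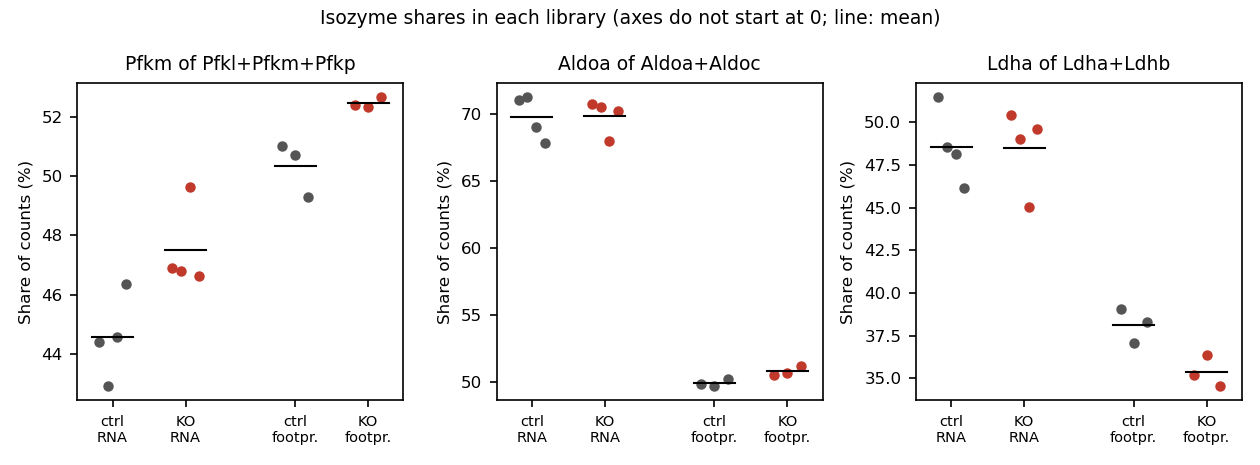
Share of an isozyme in its family's counts (vertical, percent, axes not starting at 0) in each RNA and footprint library of control (grey) and KO (red) mice, with a line at each mean. The KO libraries lie above the controls for Pfkm in both assays and below them for Ldha in footprints.

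Of the other glycolytic genes, Ldhb was the 1 called, in footprints. Ldhb, the lactate dehydrogenase subunit common in oxidative tissue, had footprints at 453, 455 and 446 CPM in controls and 483, 466 and 489 CPM in KO mice. The groups did not overlap, and the log2 fold change was 0.09 with an SE of 0.03 (edgeR, adjusted p = 0.0214). The call was lost without KO mouse 2, control mouse 9 or KO mouse 10 (edgeR, adjusted p = 0.0627 to 0.137). It was also lost with DESeq2 (0.09, adjusted p = 0.1005). Tpi1, triose phosphate isomerase, had RNA at 476 to 536 CPM in controls and 418 to 464 CPM in KO mice, without overlap, and a log2 fold change of -0.18 that did not pass (edgeR, adjusted p = 0.0593). It passed without mouse 5 (edgeR, adjusted p = 0.0237) or mouse 8 (edgeR, adjusted p = 0.0374). Gapdh RNA was at 386, 326, 384 and 442 CPM in control mice 1, 3, 6 and 8 and 469, 443, 418 and 456 CPM in KO mice 2, 4, 5 and 7, and control mouse 8 lay among the KO libraries. Its log2 fold change of 0.22 did not pass (edgeR, adjusted p = 0.101), and without mouse 8 it was 0.29 (edgeR, adjusted p = 0.00799). Gapdh footprints, at 11, 22 and 30 counts in control mice 1, 3 and 9 and 29, 27 and 23 counts in KO mice 2, 4 and 10, had the largest footprint fold change of the members (0.56, SE 0.27), which did not pass (edgeR, adjusted p = 0.118). Control mouse 9 overlapped the KO libraries in CPM, and without it the change was 0.85 (edgeR, adjusted p = 0.0345). Gapdh is often used as a constant reference gene. The remaining glycolytic members, Hk2, Gpi1, Pfkl, Pfkm, Aldoa, Aldoc, Pgk1, Pgam1, Eno2 and Ldha, had log2 fold changes between -0.11 and 0.10 in RNA. None was called in either assay in the main fits. Aldoc footprints passed in 2 of 15 alternatives, the title prefix as a block (-0.05, edgeR, adjusted p = 0.0214) and limma voom (-0.05, adjusted p = 0.00794). Pfkl and Pgk1 in RNA and Aldoa, Eno2 and Ldha in footprints passed in 1 alternative each.

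Dihydrolipoamide dehydrogenase (Dld), the third enzyme of the pyruvate dehydrogenase complex, had fewer footprints in KO. Its footprints were at 321, 330.0 and 326 CPM in control mice 1, 3 and 9 and 283, 284 and 299.5 CPM in KO mice 2, 4 and 10. All KO libraries were below all controls, with mouse 10 nearest to them. The log2 fold change was -0.17 with an SE of 0.04 (edgeR, adjusted p = 6.05e-05), and the call was kept without any single mouse. Dld RNA overlapped, at 167, 167, 149 and 136 CPM in control mice 1, 3, 6 and 8 and 158, 157, 191 and 156 CPM in KO mice 2, 4, 5 and 7. Its log2 fold change was 0.09 (edgeR, adjusted p = 0.53), and it was 0.02 without KO mouse 5 (edgeR, adjusted p = 0.874) and -0.08 in mice 1 to 4 (edgeR, adjusted p = 0.24). The TE change was -0.27 (edgeR, adjusted p = 0.105) and -0.12 with the mouse as a block (edgeR, adjusted p = 0.244). The ratio of footprint CPM to RNA CPM was 1.92 and 1.97 in control mice 1 and 3 and 1.79 and 1.81 in KO mice 2 and 4. Dld is also the third enzyme of the 2-oxoglutarate dehydrogenase complex. Pdhb footprints were at 75.1, 77.7 and 68.6 CPM in controls and 86.6, 80.4 and 81.5 CPM in KO mice, without overlap, with a log2 fold change of 0.17 (edgeR, adjusted p = 0.0592). Its TE change of 0.29 was just outside the threshold (edgeR, adjusted p = 0.0512) and passed without mouse 5 (edgeR, adjusted p = 0.0466) or mouse 8 (edgeR, adjusted p = 0.0162). Pdha1, the other subunit of the first enzyme, and Dlat, the acetyltransferase core, had log2 fold changes of -0.10 and -0.13 in RNA and -0.06 and -0.07 in footprints, and were not called.

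The 3 subunits of NAD-dependent isocitrate dehydrogenase differed among themselves. Idh3a RNA was at 162, 167, 171 and 178 CPM in control mice 1, 3, 6 and 8 and 201, 212, 237 and 204 CPM in KO mice 2, 4, 5 and 7. All KO libraries were above all controls, and KO mouse 5 was the highest. The log2 fold change was 0.33 with an SE of 0.06 (edgeR, adjusted p = 0.00589). The call was kept without any single mouse and lost with KO mice 2, 4 and 7 summed (0.39, edgeR, adjusted p = 0.0525), with control mice 1 and 3 summed as well (0.37, edgeR, adjusted p = 0.147) and in mice 5 to 8 (0.34, edgeR, adjusted p = 0.136). Idh3a footprints were at 407, 422 and 435 CPM in controls and 436, 455 and 444 CPM in KO mice. They did not overlap, with a log2 fold change of 0.08 (edgeR, adjusted p = 0.0644). Control mouse 9 stood within 1 CPM of KO mouse 2, and without mouse 9 the change passed (0.10, edgeR, adjusted p = 0.0302). It passed in 5 of 15 alternatives, among them the title prefix as a block (0.08, edgeR, adjusted p = 0.0421).

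The ratio of Idh3a footprint CPM to RNA CPM was 2.51 and 2.53 in control mice 1 and 3 and 2.17 and 2.14 in KO mice 2 and 4. Over all libraries the log2 change in TE was -0.26 with an SE of 0.08 (edgeR, adjusted p = 0.0405), and it was lost without mouse 1, 2, 3, 4, 6, 9 or 10 (edgeR, adjusted p = 0.0614 to 0.111). With the exon columns for RNA the change was -0.17 (edgeR, adjusted p = 0.227) and with plain library sizes -0.20 (edgeR, adjusted p = 0.101). The call was also lost with no filter (edgeR, adjusted p = 0.0526), with the title prefix as a block (edgeR, adjusted p = 0.0552) and with KO mice 2, 4 and 7 summed and control mice 1 and 3 summed as well (edgeR, adjusted p = 0.0565). Of the regulatory subunits, Idh3b footprints were at 304, 308 and 309 CPM in controls and 334, 355 and 313 CPM in KO mice. They did not overlap, and the log2 fold change was 0.12 with an SE of 0.04 (edgeR, adjusted p = 0.00736), but without KO mouse 4 it was 0.07 (edgeR, adjusted p = 0.185). Idh3g footprints were at 232, 237 and 235 CPM in controls and 220.4, 222 and 213 CPM in KO mice. They did not overlap either, and the log2 fold change was -0.10 with an SE of 0.04 (edgeR, adjusted p = 0.045); leaving out any of the 6 mice (1, 2, 3, 4, 9 and 10) lost the call (edgeR, adjusted p = 0.0551 to 0.197). In RNA the log2 fold changes of Idh3b and Idh3g were -0.12 and -0.06, and neither was called. The NADP-dependent mitochondrial Idh2 had log2 fold changes of -0.11 in RNA and -0.10 in footprints and was not called.

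Ogdh and Suclg1, whose products act in successive steps from 2-oxoglutarate to succinate, had more RNA in KO. Ogdh RNA was at 399, 385, 401 and 435 CPM in control mice 1, 3, 6 and 8 and 469, 454, 469 and 468 CPM in KO mice 2, 4, 5 and 7. No library overlapped, and the log2 fold change was 0.20 with an SE of 0.05 (edgeR, adjusted p = 0.0328). Suclg1 RNA was at 82.6, 87.6, 81.2 and 100.3 CPM in the controls and 103, 104, 109.9 and 106 CPM in the KO mice in the same order. Control mouse 8 was close to the KO libraries, and the log2 fold change was 0.26 with an SE of 0.07 (edgeR, adjusted p = 0.0294). Without mouse 1, 2, 3, 4, 6 or 7 both calls were lost (edgeR, adjusted p = 0.0779 to 0.104 for Ogdh and 0.0625 to 0.103 for Suclg1). With KO mice 2, 4 and 7 summed the edgeR adjusted p was 0.245 and 0.201. The Ogdh call was also lost with the exon columns (0.20, edgeR, adjusted p = 0.0579). Footprints of Ogdh and Suclg1 had log2 fold changes of 0.05 and 0.06 and were not called. Dlst, the succinyltransferase core of the Ogdh complex, and the partner subunits Sucla2 and Suclg2 had log2 fold changes of -0.10, -0.07 and -0.17 in RNA and were not called in either assay.

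Succinate dehydrogenase, which is also complex II of the respiratory chain, had 2 subunits called in footprints, in opposite directions. The iron-sulfur subunit Sdhb was at 231, 222 and 233 CPM in control mice 1, 3 and 9 and 254, 254 and 241 CPM in KO mice 2, 4 and 10, with a log2 fold change of 0.13 and an SE of 0.04 (edgeR, adjusted p = 0.00835). The membrane anchor Sdhd was at 123, 126 and 122 CPM in controls and 107, 116 and 113 CPM in KO mice, with a log2 fold change of -0.14 and an SE of 0.05 (edgeR, adjusted p = 0.0444). Neither gene overlapped between genotypes. The Sdhb call was lost without mouse 3 or 4 (edgeR, adjusted p = 0.0859 and 0.051) and the Sdhd call without mouse 1, 2, 3 or 10 (edgeR, adjusted p = 0.083 to 0.189). The flavoprotein Sdha and the anchor Sdhc had footprint log2 fold changes within 0.01 of 0. Their RNA changes of 0.15 and -0.15 did not pass (edgeR, adjusted p = 0.0912 and 0.122), and each passed in 2 of 21 alternatives. Sdha passed with limma voom (adjusted p = 0.0397) and in the fit over all 14 libraries (edgeR, adjusted p = 0.0177). Sdhc passed with the exon columns (-0.20, edgeR, adjusted p = 0.0251) and in mice 1 to 4 (-0.22, edgeR, adjusted p = 0.0097).

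In the last steps, fumarase (Fh1) footprints were at 195, 182 and 187 CPM in controls and 201, 204 and 211 CPM in KO mice. The groups did not overlap, and the log2 fold change was 0.13 with an SE of 0.04 (edgeR, adjusted p = 0.0127). Cytosolic malate dehydrogenase (Mdh1), part of the malate-aspartate shuttle, had footprints at 1912, 1875 and 1906 CPM in controls and 1998, 1943 and 2021 CPM in KO mice. These did not overlap either, and the log2 fold change was 0.07 with an SE of 0.02 (edgeR, adjusted p = 0.00904). Without mouse 3 or 10 both calls were lost (edgeR, adjusted p = 0.104 and 0.0956 for Fh1, 0.0538 and 0.0997 for Mdh1). Mitochondrial Mdh2 had RNA at 166, 158, 183 and 203 CPM in control mice 1, 3, 6 and 8 and 199, 204, 259 and 211 CPM in KO mice 2, 4, 5 and 7. Control mouse 8 overlapped the KO libraries and KO mouse 5 was the highest. The RNA log2 fold change of 0.30 did not pass (edgeR, adjusted p = 0.059), and without mouse 8 it was 0.37 (edgeR, adjusted p = 0.00848). It passed in 8 of 21 alternatives, among them the title prefix as a block (0.30, edgeR, adjusted p = 0.0226) and DESeq2 (0.30, adjusted p = 0.0312). Citrate synthase (Cs) had log2 fold changes of 0.11 in RNA and 0.03 in footprints; the RNA change passed without mouse 8 (0.16, edgeR, adjusted p = 0.0494).

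RNA and footprint changes were set side by side for the 35 members tested in both. They had the same sign in 22 members and opposite signs in 13 (37.1%), where 43.5% of the 12145 genes tested in both had opposite signs. Of the 13, 9 had lower RNA and higher footprints, among them Pkm, Tpi1, Pdhb, Idh3b and Fh1, and 4 the reverse. Over all genes these counts were 2653 and 2627. Across the 35 genes the fold changes had a Spearman correlation of 0.02, against 0.22 over all 12145 genes, as a description of genes that share libraries. The Pearson correlation was 0.18 and 0.36, and 0.01 in the members without Gapdh; no gene was left out of the value over all genes. The assays have mice 1 to 4 in common.

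**Figure D5:**
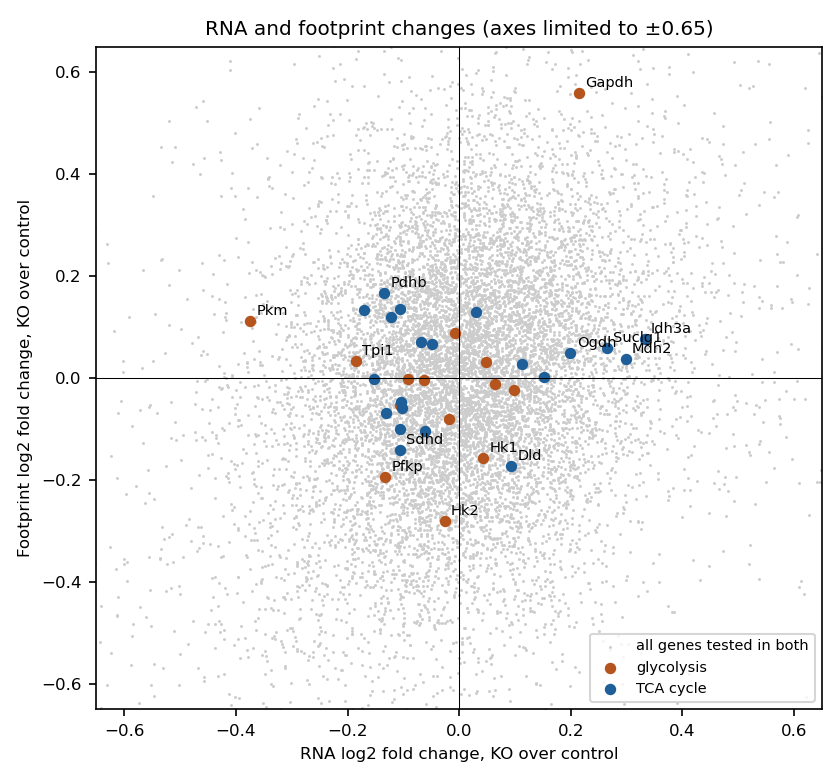
Footprint log2 fold change (vertical) against RNA log2 fold change (horizontal), KO over control, for glycolytic genes (brown), TCA cycle genes (blue) and all genes tested in both assays (grey), with axes limited to 0.65 either side of 0. Pkm is the member farthest to the left (-0.37) and 1 of 9 at the upper left, where Pdhb, Suclg2, Fh1 and Idh3b lie higher and nearer to 0 on the RNA axis; Idh3a, Mdh2, Suclg1 and Ogdh lie to the right, near 0 on the footprint axis.

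A wider list of 36 genes around glycolysis (transporters, regulators, side pathways) and 41 around the TCA cycle was counted in the same fits. In RNA, 2 of 25 tested genes of the first list and 1 of 38 of the second were called (8.0% and 2.63%, where 7.41% of all genes were). Pfkfb3, which makes the activator of phosphofructokinase, had RNA at 9.07 to 14.7 CPM in controls and 15.9 to 18.9 CPM in KO mice (log2 fold change 0.56, edgeR, adjusted p = 0.0194). Ogdhl, a relative of Ogdh, was at 127 to 136 CPM and 159.9 to 170.3 CPM (0.31, edgeR, adjusted p = 0.00317). Taldo1, transaldolase of the pentose phosphate pathway, was lower, at 147 to 154 CPM in controls and 112 to 128 CPM in KO mice (-0.36, edgeR, adjusted p = 0.00225). The Pfkfb3 call was lost without mouse 1, 2, 4, 6 or 7 (edgeR, adjusted p = 0.0567 to 0.0701). With KO mice 2, 4 and 7 summed, none of these 3 genes was called (edgeR, adjusted p = 0.0684 for Ogdhl, 0.104 for Taldo1 and 0.18 for Pfkfb3).

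In footprints, 6 of 24 genes of the wider glycolysis list and 7 of 36 of the wider TCA list were called (25% and 19.4%), which is near or under the 25.5% of all genes. The largest rises were those of Pfkfb3 (0.35, edgeR, adjusted p = 0.0159), Pdp1, a phosphatase that activates pyruvate dehydrogenase (0.35, edgeR, adjusted p = 1.4e-09), and Me2, a mitochondrial malic enzyme (0.31, edgeR, adjusted p = 0.00557). Pdp1 footprints were at 143 to 155 CPM in controls and 186 to 199.7 CPM in KO mice, and the call was kept in all 15 alternatives. That of Pfkfb3 was lost without mouse 3 (edgeR, adjusted p = 0.128) or 10 (edgeR, adjusted p = 0.141), and that of Me2 without mouse 2 (edgeR, adjusted p = 0.0537). With DESeq2 the calls of Pfkfb3 and Me2 were lost (adjusted p = 0.107 and 0.0553). The largest falls were those of Slc16a1, a lactate and pyruvate transporter (-0.26, edgeR, adjusted p = 0.000131), Acly, which makes cytosolic acetyl-CoA (-0.16, edgeR, adjusted p = 4.28e-05), and Glud1, glutamate dehydrogenase (-0.14, edgeR, adjusted p = 0.00052). These 3 calls were kept without any single mouse, and that of Acly in all 15 alternatives. In the fit shared with the RNA libraries those of Slc16a1 and Glud1 were lost (edgeR, adjusted p = 0.0672 and 0.0537). That of Glud1 was also lost with plain library sizes (edgeR, adjusted p = 0.0618).

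In TE, 1 of 24 and 3 of 36 genes of the wider lists were called (4.17% and 8.33%, where 7.81% of all genes were). Taldo1 was higher by 0.55 (edgeR, adjusted p = 0.000428) and was called in all 22 alternatives. As in Pkm, its RNA was lower and its footprints higher in KO, at 76.7 to 89.2 CPM in control footprints and 91.1 to 100.1 CPM in KO footprints. That footprint call was lost without mouse 9 (edgeR, adjusted p = 0.0958) or 10 (edgeR, adjusted p = 0.108). It was also lost with DESeq2 (adjusted p = 0.084) and in the fit shared with the RNA libraries (edgeR, adjusted p = 0.0715). Pdp1 was higher in TE by 0.33 (edgeR, adjusted p = 0.0121; 0.0737 without mouse 2 and 0.0538 without mouse 3). Sdhaf1, an assembly factor of succinate dehydrogenase, was higher by 1.03 at 16 to 75 counts per library (edgeR, adjusted p = 0.031), and lost the call without mouse 2, 3, 4 or 7 (edgeR, adjusted p = 0.0556 to 0.158). Ogdhl was lower, with a TE change of -0.29 (edgeR, adjusted p = 0.0171), and without mouse 1, 2, 3 or 4 it was not called (edgeR, adjusted p = 0.0506 to 0.0971).

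The respiratory chain, which uses the electrons the TCA cycle provides, was counted beside the enzymes. Of its 73 listed subunits tested in RNA, 2 were called higher and 18 lower, with a median log2 fold change of -0.12, where 3.53% of all genes were called higher and 3.88% lower. In footprints 38 of 66 were called higher and 3 lower (median 0.12), against 11.9% and 13.6% of all genes. In TE 27 of 66 were called higher and 0 lower by edgeR (median 0.24; 41 of 66 had an unadjusted p under 0.05 in either direction), against 3.4% and 4.41% of all genes. With KO mice 2, 4 and 7 summed, which was added for this list after the data were seen, 0 subunits were called in RNA in either direction and 19 were called higher in TE, where 4.47% of all genes were called in either direction. The RNA counts were also lower without mouse 2, 4, 6 or 7 (0 higher and 9 to 10 lower) and without mouse 1 or 3 (0 higher, 12 and 15 lower), and the TE count was 17 without mouse 2 and 15 without mouse 4. In TE, DESeq2 called 1 subunit lower, limma voom 2 and the fit with the mouse as a block 3. In footprints the fit shared with the RNA libraries called 20 higher and 1 lower. The TCA cycle enzymes had 3 of 21 higher and 0 lower in RNA, 4 higher and 3 lower in footprints, and 0 higher and 1 lower in TE. The difference between these lists was not tested.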

How the data were processed

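The authors deposited raw counts of 23412 genes in 1 table, per the file headers and values. The submitters' processing notes name Bowtie2, STAR 2.5, featureCounts, Subread 1.4.6 and the builds mm9 and mm10 without their roles, and the region counted and the strand setting are not given in the sources used here. Per the labels' protocols, monosomes came from nuclease-digested lysate on a sucrose gradient, and RNA was depleted of ribosomal RNA before strand-specific library preparation. For RNA the columns without a suffix entered, since these and the footprint columns hold values for one gene set (2849 genes are empty in both), and the columns ending in exon were an alternative. No column belonged to a sample outside the labels and no line lacked a gene name.

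Counts were tested with edgeR 4.0.16 (R 4.3.3; quasi-likelihood F test, two-sided, TMM, filterByExpr at a minimum count of 10, group means, Benjamini-Hochberg adjustment over all genes tested, threshold 0.05): RNA over 8 libraries, footprints over 6, and TE as the interaction over all 14 for genes kept in both. Standard errors were derived from the F statistic. The fits were also run on simulated data, whose settings and results are not given here, so no conclusion is drawn from them. CPM, ratios and shares were computed from the counts. The members, gene lists and tests were chosen with earlier results of these data known. Genes with full values were those called in any comparison, with Gapdh, and of the wider lists the 3 largest rises and falls among called genes per comparison; other members were named where they were near a threshold or belonged to the same complex, after their values were seen. One gene of the wider glycolysis list is not reported here and was taken out of its counts. Levels per coding length were planned and left out. The labels' descriptions tie the RNA and footprint libraries of mice 1 to 4 to the same animals; the deviations of their paired libraries from the group means correlated at 0.00308, 0.0108, 0.0341 and -0.0133 over 12145 genes. The marker lists not printed above (inhibitory neuron, microglia, endothelium, striatum, choroid plexus and red blood cell) had summed RNA levels that overlapped between genotypes. In footprints those of inhibitory neuron (1621 to 1667 CPM in controls, 1694 to 1721 CPM in KO mice) and choroid plexus markers (12.5 to 15.8 CPM and 6.64 to 11.6 CPM, 1 of 6 at 0 in all) did not overlap.

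Alternatives were other scaling (DESeq2 size factors, plain library sizes), filters (none, minimum count 50), tools (DESeq2 1.42.0, limma 3.58.1 voom with library weights), the exon columns, the title prefix as a block, 1 fit over all libraries, sums of the RNA of KO mice 2, 4 and 7 and of control mice 1 and 3, subsets of mice, the mouse as a block, and leaving out each mouse. Depth limits precision: a count of 0 allows up to 3 counts, and such limits cover counting error only.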

Additional observations from a re-analysis of the deposited data

Results flagged for a closer look

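Of 44 RNA values examined in the groups of 4 mice, 5 had 1 library far from the other 3, judged by the gap to the nearest library over the group's range against Dixon's 95% critical value. Chance gives about 1 in 20. All 5 lay in the KO group, whose RNA libraries from mice 2, 4 and 7 are nearly identical. KO mouse 5 stood apart in Hk1 (551 CPM against 458 to 469, ratio 0.889), Ldhb (355 CPM against 286 to 296, ratio 0.852), Dld (191 CPM against 156 to 158, ratio 0.922) and the Pfkm share of phosphofructokinase counts (49.6% against 46.6% to 46.9%, ratio 0.908). KO mouse 4 stood apart in Ogdh (454 CPM against 468 to 469, ratio 0.954).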

How the results depend on the processing

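Counts of called members moved with the settings, and the cause was not tested. In RNA the glycolytic count (1) was 2 with plain library sizes, 2 with a minimum count of 50, 2 with DESeq2, 4 with limma voom, 7 in mice 1 to 4, 3 in 1 fit over all 14 libraries, 0 in mice 5 to 8, 0 with KO mice 2, 4 and 7 summed, 0 with control mice 1 and 3 summed as well, and 1 to 4 when a mouse was left out. The TCA cycle count (3) was 7 with limma voom, 13 in mice 1 to 4, 5 in the fit over all libraries, 0 in mice 5 to 8, 0 with each sum, and 1 to 5 without a mouse. In footprints the glycolytic count (4) was 7 with plain library sizes, 1 in the fit over all libraries and 2 to 5 without a mouse; the TCA cycle count (7) was 12 with plain library sizes, 2 with DESeq2, 3 in mice 1 to 4, 0 in the fit over all libraries and 3 to 7 without a mouse. In TE the glycolytic count (1) was 2 with plain library sizes, 2 with a minimum count of 50, 2 with limma voom, 3 in mice 1 to 4, 3 with the mouse as a replicate block and 1 to 2 without a mouse; the TCA cycle count (1) was 3 with plain library sizes, 2 with a minimum count of 50, 2 with DESeq2, 7 with limma voom, 8 in mice 1 to 4, 7 with the replicate block, 0 with no filter, 0 with the title prefix as a block, 0 with the exon columns, 0 with KO mice 2, 4 and 7 and control mice 1 and 3 summed and 0 to 6 without a mouse. The share of all genes called moved as well: in RNA (7.41%) it was 19.9% with limma voom, 24.1% in mice 1 to 4, 12.8% in the fit over all libraries, 0.652% in mice 5 to 8 and 0.579% and 0.263% with the sums; in footprints (25.5%) 28.4% with plain library sizes, 15% with DESeq2, 20.4% in mice 1 to 4 and 13.8% in the fit over all libraries; in TE (7.81%) 15.7% with limma voom, 14.8% in mice 1 to 4 and 14.9% with the replicate block. Plain library sizes shift the median of all genes by 0.06 in both footprints and TE, to which rises there are relative. Fold changes took the other sign in at least 1 alternative in 16 of 37 members in RNA, 9 of 35 in footprints and 11 of 35 in TE. With the other sign and a call, these were Hk1 RNA in mice 1 to 4 (-0.14) and Aldoa footprints with plain library sizes (0.057, against -0.002 with TMM; edgeR, adjusted p = 0.0298). No called member changed sign in any alternative; among the 17 calls, 6 held without each single mouse, and Pkm in TE and Pfkp in footprints held in every alternative.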
